A study of Mus musculus with 6 samples.

Results

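Commitment factors, 10 genes that mark or drive entry into the T lineage, were followed in mouse DN3 thymocytes: Gata3, Bcl11b, Runx1, Runx3, Ets1, Myb, Gfi1, Ikzf1, Satb1 and Themis. They were chosen by name, and 10 of 10 were found among the 24015 gene symbols in the files. None of the 10 passed the test between any pair of genotypes. The largest fitted differences from control were lower levels of Runx1 in both mutants, and of Bcl11b, Myb and Gfi1 in p45-deficient cells. These were called only under some other ways of fitting the same counts.

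RNA sequencing libraries came from sorted DN3 cells of the thymus, which carry high CD25 and low CD44 and neither CD4 nor CD8. There were 2 libraries from each of 3 genotypes. Tcf1-deficient mice carried an Lck-Cre transgene and floxed Tcf1 alleles (Lck-cre+ Tcf1 fl/fl). The p45-deficient mice were p45-/-, and control mice were wild type. Only the Tcf1-deficient mice carried Cre, so that effects of Cre and of Tcf1 loss cannot be told apart. Lck-Cre acts in developing thymocytes, and the floxed gene may be intact in cells that have not yet recombined it. The labels give neither the ages of the mice nor whether the 2 libraries of a genotype came from separate animals. If they did not, the p-values measure only technical spread.

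Tcf1 is a DNA-binding protein encoded by Tcf7, and p45 is its long form, which can bind beta-catenin. In the thymus, Notch signals and Tcf1 start the T-cell programme, and Gata3 and Bcl11b then close off other fates. Runx, Ets, Myb, Gfi1, Ikaros and Satb1 proteins act at enhancers and silencers of T-cell genes. At the DN3 stage thymocytes rearrange the T-cell receptor beta chain gene.

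Libraries held 21826476 to 28107031 counts in the mutant groups, and 19640524 and 25704385 counts in the control group. Levels are CPM, counts scaled to a common library size, and they are not corrected for gene length, so they are compared between libraries and never between genes. Tcf7 had 979 and 976 CPM in Tcf1-deficient cells, 2340 and 2414 CPM in p45-deficient cells, and 2088 and 1810 CPM in control cells. It was lower in Tcf1-deficient than in p45-deficient cells (log2 fold change -1.28, adjusted p = 0.0031, edgeR's quasi-likelihood test), and it was 0.502 times the control level with an adjusted p of 0.0762. Counts per gene do not show which Tcf7 form was made, so they do not check the p45 label.

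The sorted cells were compared with marker lists, as summed CPM. The 9 DN3 markers summed to 4765 and 7265 CPM in Tcf1-deficient, 7358 and 6772 in p45-deficient and 7515 and 6108 in control cells. The 6 markers of beta-selected or double-positive thymocytes found in the files summed to 648 to 835 CPM over all libraries. The 5 gamma-delta T-cell markers found in the files summed to 353 and 350 CPM in Tcf1-deficient, 562 and 475 in p45-deficient and 198 and 162 in control cells. Myeloid and dendritic markers (12 genes) summed to 117 and 25.2 CPM in Tcf1-deficient, 28.3 and 30.5 in p45-deficient and 116 and 54.1 in control cells. B-cell markers (8 genes) summed to 14.4 to 37.0 CPM, with Pax5 at 0 counts in every library except control replicate 1. NK and innate lymphoid markers (7 genes) summed to 19.9 CPM in Tcf1-deficient replicate 1 and to 2.71 to 5.99 CPM elsewhere. Erythroid and stromal markers (10 genes) summed to 160 to 214 CPM, with Hba-a1, Hba-a2 and Hbb-b1 at 0 counts in all libraries. The DN3 sum was lowest in Tcf1-deficient replicate 1, and the myeloid sum was higher there and in control replicate 1 than in the other 4 libraries; the part of either in the results was not tested. In bulk samples, fewer cells of a type and less RNA per cell cannot be told apart.

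Because Tcf1 binds DNA through TCF/LEF letters, and Runx proteins through RUNX letters, the annotated promoters were searched for both on both strands. Windows of 300 bases, 250 before to 50 after each annotated start, came from RefSeq (GRCm38.p6) and were present for 9 of the 10 genes, Ets1 being the other. The TCF/LEF letters searched were CTTTGAA and CTTTGAT, and also CTTTGTA and CTTTGTT. At least 1 of these was found in 4 of the 9 genes, against 18.9% of all 27025 genes with a window. A gene with more windows has more chances of a match, and the 9 genes had 18 windows. By window, 5 of the 18 held a match, against 16.9% of all 32851 windows, with the Satb1 match counted at both of its starts. The matches, in capitals with 10 bases on each side, are shown 5′ to 3′ on the strand of the gene.
Bcl11b: aggccaagcaCTTTGAAgaagtgtgag
Ikzf1: tgttggtcttCTTTGTAggcctagcag
Satb1: acgggttccgCTTTGTTtttacgactc
Myb: gtccaaacctCTTTGTTtgatggcatc
The Bcl11b match lies in chr12:108003487-108003513 on the minus strand and begins at position -89 from the start. The Ikzf1 match lies in chr11:11689945-11689971 on the plus strand and begins at -222. The Satb1 match lies in chr17:51812186-51812212 on the minus strand, at -18 or -148 depending on which annotated start is used. The Myb match lies in chr10:21160952-21160978 on the minus strand and begins at 17, inside the transcript.

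The RUNX letters TGTGGTT were found in 2 of the 18 windows of the 9 genes, against 5.27% of all windows. By gene they were found in 2 of the 9, Runx1 and Runx3, against 6.09% of all genes. These 2 promoters share a run of 18 bases that holds the letters in 2 neighbouring copies, read on the opposite strand as AACCACA. The run is shown with those copies in capitals.
Runx1 and Runx3: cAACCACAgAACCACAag
It lies in chr16:92826031-92826048 on the minus strand for Runx1, beginning at 27, and in chr4:135120509-135120526 on the plus strand for Runx3, beginning at -136. Of 32851 windows it was found in 4, of the genes Runx1, Runx2, Runx3 and Gm16225. None of the 9 genes had both TCF/LEF and RUNX matches, so the 2 kinds could not overlap. Letters in a window describe the sequence and do not show that a protein binds there.

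Gata3 is the zinc finger factor needed from the earliest T-cell stages. It had 178.7 and 181.2 CPM in Tcf1-deficient cells, 145.0 and 148.3 CPM in p45-deficient cells, and 152.5 and 146.9 CPM in control cells. Both Tcf1-deficient libraries lay above the other 4, while the p45-deficient and control ranges overlapped. The log2 fold change was 0.27 ± 0.11 (SE; 95% interval 0.02 to 0.51) in Tcf1-deficient against control cells, with an adjusted p of 0.618 from edgeR's quasi-likelihood test, and 0.30 (interval 0.05 to 0.54; adjusted p = 0.111) against p45-deficient cells. In p45-deficient against control cells it was -0.03 (interval -0.28 to 0.22). Gata3 was thus measured tightly, and a change beyond 1.5-fold lies outside each of these intervals.

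Bcl11b, the zinc finger repressor that ends the multipotent state, had 933.7 and 872.1 CPM in Tcf1-deficient cells, 775.3 and 742.7 CPM in p45-deficient cells, and 1197 and 872.7 CPM in control cells. The p45-deficient libraries were the lowest of all, and control replicate 1 stood well above replicate 2. In p45-deficient against control cells the log2 fold change was -0.45 ± 0.16 (SE; interval -0.81 to -0.08; unadjusted p = 0.0236, adjusted p = 0.0927, edgeR's quasi-likelihood test). Its size depended on the control library: it was -0.25 without control replicate 1 and -0.71 without control replicate 2. For Tcf1-deficient against control cells it was -0.20 (interval -0.56 to 0.17; adjusted p = 0.761), and 0.05 without control replicate 1.

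Runx1 and Runx3 encode DNA-binding partners of Cbfb. Runx1 acts broadly in early thymocytes, and Runx3 later helps to silence Cd4. Runx1 had 241.4 and 399.6 CPM in Tcf1-deficient cells, 318.0 and 314.8 CPM in p45-deficient cells, and 456.2 and 418.4 CPM in control cells. All 4 mutant libraries lay below both control libraries, and the 2 Tcf1-deficient libraries were 1.66-fold apart. The log2 fold change was -0.45 ± 0.22 in Tcf1-deficient (SE; adjusted p = 0.656) and -0.47 ± 0.22 in p45-deficient cells (SE; adjusted p = 0.187), each against the same control libraries and by edgeR's quasi-likelihood test. Without Tcf1-deficient replicate 2 the first became -0.87 with an adjusted p of 0.00631, and without Tcf1-deficient replicate 1 it was -0.13.

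Runx3 had 86.34 and 93.30 CPM in Tcf1-deficient cells, 64.29 and 75.73 CPM in p45-deficient cells, and 73.77 and 74.39 CPM in control cells. The Tcf1-deficient libraries were the highest, and the p45-deficient ones lay on either side of control. The log2 fold change was 0.28 in Tcf1-deficient against control cells (interval -0.02 to 0.58; adjusted p = 0.644, edgeR) and 0.36 against p45-deficient cells (interval 0.06 to 0.66; unadjusted p = 0.0245, adjusted p = 0.108).

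Ets1 and Myb bind enhancers of T-cell receptor genes, and Myb also helps thymocytes to survive and divide. Ets1 had 1367 and 1243 CPM in Tcf1-deficient cells, 1199 and 1255 CPM in p45-deficient cells, and 1008 and 1264 CPM in control cells. The 3 groups overlapped, and the widest gap between libraries of 1 group was in control. Against control, the log2 fold change was 0.20 (interval -0.12 to 0.52) in Tcf1-deficient and 0.11 (interval -0.20 to 0.43) in p45-deficient cells.

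Myb had 607.3 and 964.4 CPM in Tcf1-deficient cells, 625.2 and 570.1 CPM in p45-deficient cells, and 744.7 and 867.0 CPM in control cells. The p45-deficient libraries lay below control, whereas the Tcf1-deficient libraries lay on both sides of it. For Myb the log2 fold change was -0.43 ± 0.21 in p45-deficient against control cells (SE; interval -0.94 to 0.07; adjusted p = 0.204, edgeR's quasi-likelihood test). Its value in Tcf1-deficient against control cells was -0.04, with -0.42 without Tcf1-deficient replicate 2 and 0.26 without replicate 1. Against p45-deficient cells it was 0.39 (adjusted p = 0.253), and 0.75 with an adjusted p of 0.0101 without Tcf1-deficient replicate 1.

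**Figure D1:**
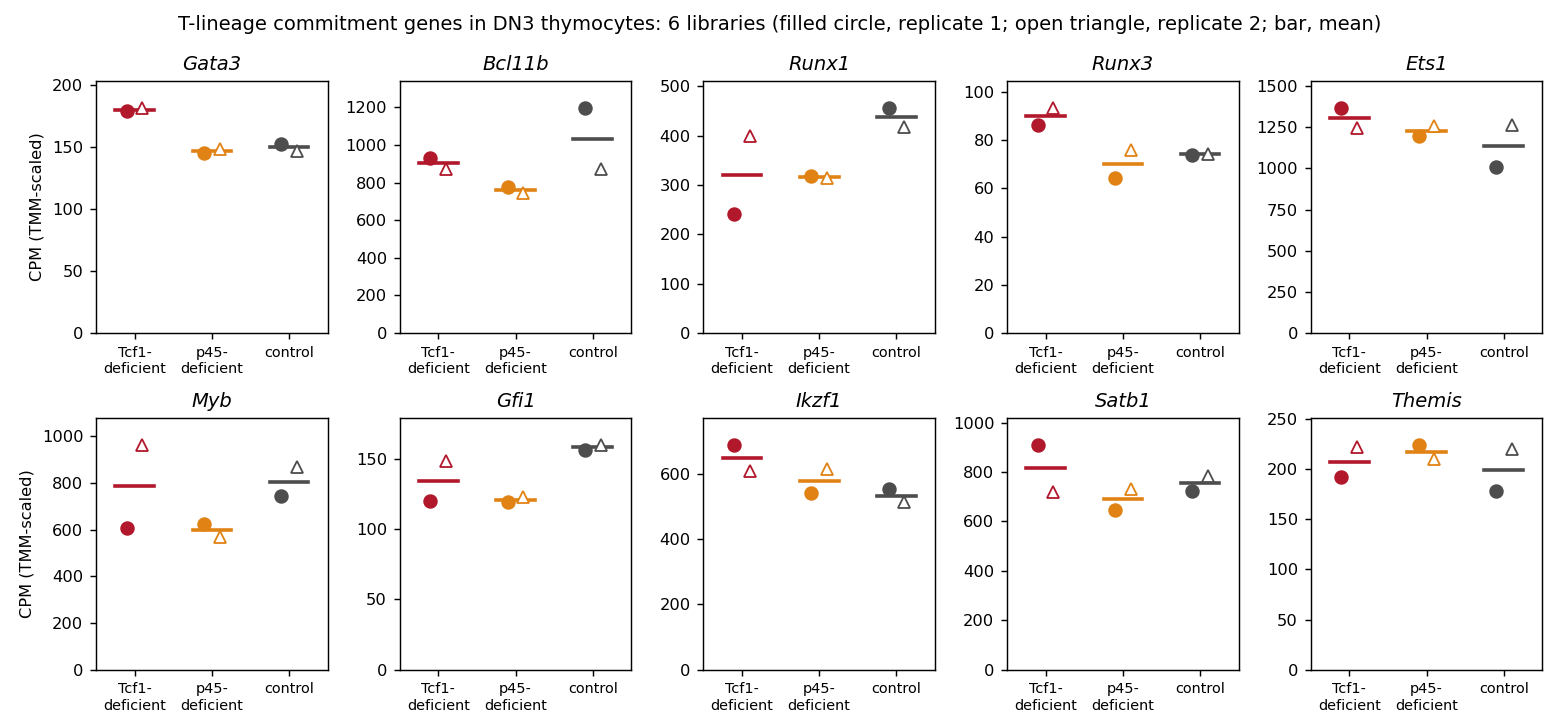
CPM of each of the 10 genes in every library, by genotype; points are single libraries. Runx1 and Myb have widely spaced points in Tcf1-deficient cells, 241.4 and 399.6 CPM and 607.3 and 964.4 CPM, and Bcl11b has in control cells.

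Gfi1 and Ikzf1 encode zinc finger proteins that recruit chromatin-modifying complexes: Gfi1 is a repressor and Ikzf1 encodes Ikaros. Gfi1 had 120.2 and 148.4 CPM in Tcf1-deficient cells, 119.0 and 122.4 CPM in p45-deficient cells, and 156.4 and 159.9 CPM in control cells. All 4 mutant libraries lay below the control libraries, which were close to each other. The log2 fold change was -0.24 (interval -0.54 to 0.07; adjusted p = 0.688, edgeR) in Tcf1-deficient and -0.39 ± 0.13 (SE; interval -0.70 to -0.08; adjusted p = 0.0839) in p45-deficient cells, each against control. Without Tcf1-deficient replicate 1 the first was -0.09, and without replicate 2 it was -0.40. The second was the smallest adjusted p among the 10 genes in any comparison.

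Ikzf1 had 688.9 and 609.6 CPM in Tcf1-deficient cells, 542.5 and 615.0 CPM in p45-deficient cells, and 553.4 and 512.7 CPM in control cells. Both Tcf1-deficient libraries lay above control, and the p45-deficient range overlapped the other 2. Its log2 fold change in Tcf1-deficient against control cells was 0.28 (interval -0.0045 to 0.57; adjusted p = 0.626, edgeR's quasi-likelihood test).

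Satb1, which organises chromatin loops in thymocytes, had 910.7 and 718.7 CPM in Tcf1-deficient cells, 645.4 and 733.2 CPM in p45-deficient cells, and 722.7 and 785.4 CPM in control cells. All groups overlapped. Its log2 fold change against control was 0.11 (interval -0.23 to 0.45) in Tcf1-deficient and -0.13 (interval -0.47 to 0.21) in p45-deficient cells. Themis is not a DNA-binding factor but a signalling protein of the T-cell receptor pathway. It had 192.3 and 222.1 CPM in Tcf1-deficient cells, 224.0 and 209.7 CPM in p45-deficient cells, and 177.5 and 219.7 CPM in control cells. These ranges overlapped as well, with log2 fold changes against control of 0.06 (interval -0.28 to 0.40) and 0.13 (interval -0.21 to 0.47) in Tcf1-deficient and p45-deficient cells.

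In p45-deficient against control cells, 0 of the 10 genes were called at an adjusted p under 0.05, where 16.0% of the 12939 genes tested were, 8.47% higher and 7.55% lower. At an unadjusted p under 0.05 there were 2, Bcl11b and Gfi1, against 33.8% of all genes; DESeq2 called the same 2 genes, beside 22.7% of all genes. Bcl11b, Runx1, Myb and Gfi1 had both p45-deficient libraries below both control libraries, 4 of 10 against 31.3% of all genes, and none had both above, against 37.9%. In either direction that is 4 of 10, against 69.3% of all genes. These shares are near the background or under it. The median log2 fold change of the 10 was -0.11, beside 0.05 over all genes, and the median size of the change was 0.13, beside 0.37. A fit on only the p45-deficient and control libraries called those 4 genes lower, while it called 31.0% of all genes. Leaving out Tcf1-deficient replicate 1 called the 4 as well, beside 28.8% of all genes, and leaving out Tcf1-deficient replicate 2 called Runx1, Myb and Gfi1, beside 28.9%. With library totals Gfi1 was called, beside 15.5% of all genes. Bcl11b was called with no filter on low counts, beside 12.9%, and without control replicate 2, beside 3.94%.

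In Tcf1-deficient against control cells, 0 of the 10 were called by edgeR or by DESeq2, and edgeR called 0% of all genes. At an unadjusted p under 0.05 there was 1, Gata3, against 7.91% of all genes. Gata3, Runx3 and Ikzf1 had both Tcf1-deficient libraries above control, against 16.4% of all genes, and Runx1 and Gfi1 had both below, against 18.0%. Either way these were 5 of 10, against 34.4%. Without Tcf1-deficient replicate 2, Runx1 alone was called, beside 6.59% of all genes. The median size of the log2 fold change was 0.22 over the 10 and 0.18 over all genes. For 9 of the 10, all but Runx1, the 95% interval lay within a 1.5-fold change either way, and for all 10 it lay within 2-fold.

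In Tcf1-deficient against p45-deficient cells, 0 of the 10 were called, where 10.4% of all genes were, 5.05% higher and 5.36% lower. At an unadjusted p under 0.05 there were 2, Gata3 and Runx3, against 31.1% of all genes. Gata3, Bcl11b and Runx3 had both Tcf1-deficient libraries above both p45-deficient ones, against 27.7%. None had both below, against 33.3%, so that 3 of 10 were apart in either direction, against 61.0%. The fitted change was positive for 9 of the 10, all but Themis, with a median of 0.20 beside -0.01 over all genes. DESeq2 called Gata3 (adjusted p = 0.0414), beside 19.0% of all genes, and a fit on only these 2 groups called 0 of the 10, beside 3.87%. Without Tcf1-deficient replicate 1, Myb was called higher, beside 10.2% of all genes, and without replicate 2, Runx1 was called lower (-0.40, adjusted p = 0.0417), beside 25.3%. The 3 comparisons share libraries, so their counts are not independent of each other.

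**Figure D2:**
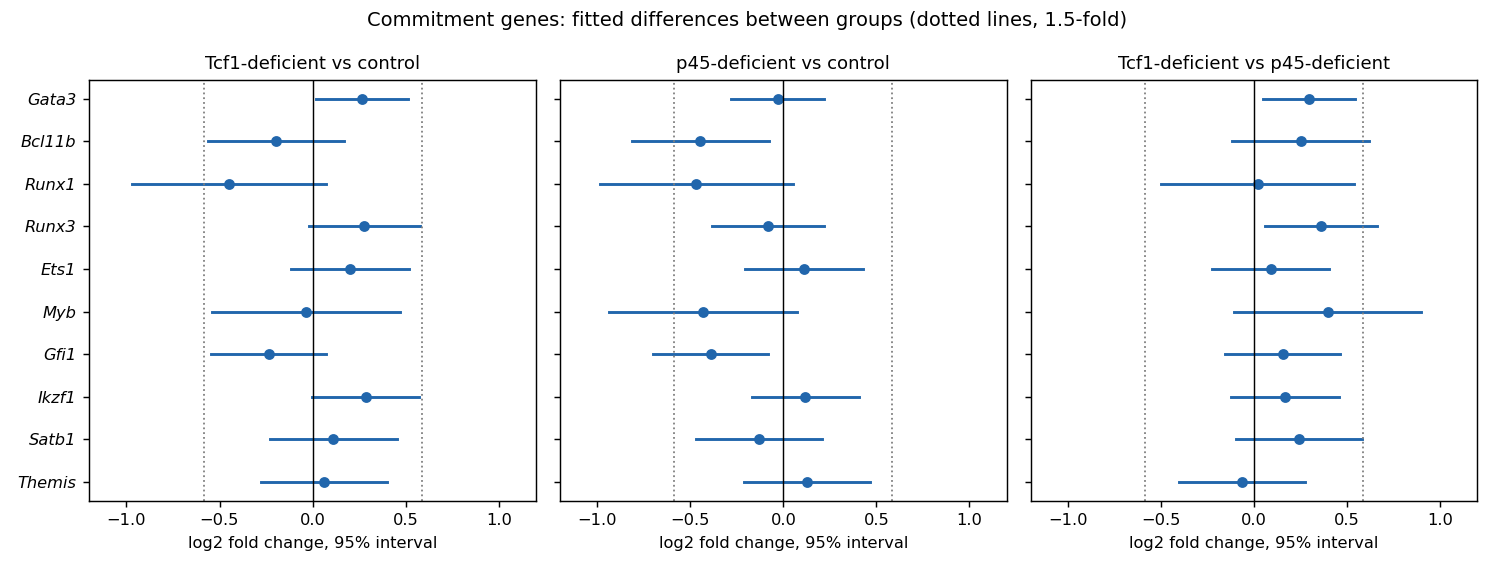
Log2 fold change of each gene in the 3 comparisons, with 95% intervals from the edgeR fit; dotted lines mark a 1.5-fold change. All 30 intervals lie within a 2-fold change, and those furthest below 0 against control in p45-deficient cells are Runx1, Bcl11b, Myb and Gfi1.

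The 10 genes differed in how well the 2 libraries of a genotype matched. In Tcf1-deficient cells the log2 difference between libraries was 0.73 for Runx1, 0.67 for Myb, 0.34 for Satb1 and 0.30 for Gfi1, beside a median of 0.30 over all tested genes, and 0.02 for Gata3. Replicate 1 was the lower for Runx1, Myb and Gfi1 and the higher for Satb1. In p45-deficient cells the differences ran from 0.02 for Runx1 to 0.24 for Runx3, beside a median of 0.14. In control cells the largest were 0.46 for Bcl11b, 0.33 for Ets1 and 0.31 for Themis, beside a median of 0.20. The genes least alike between Tcf1-deficient libraries were thus not those least alike between control libraries. In Tcf1-deficient replicate 1, Cd4 had 372 CPM, against 46.1 in replicate 2 and 63.1 to 86.5 in the p45-deficient and control libraries; its part in these differences was not tested.

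**Figure D3:**
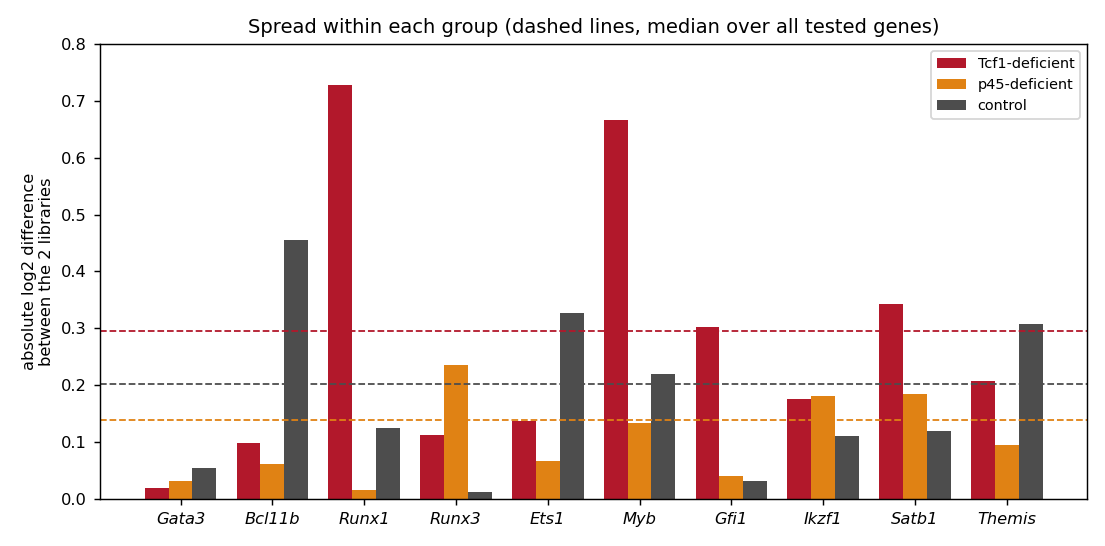
Size of the log2 difference between the 2 libraries of each genotype, per gene; bars are single values and the dashed line is the median over all tested genes. Runx1 (0.73) and Myb (0.67) have the tallest bars in Tcf1-deficient cells, and Bcl11b (0.46) has in control cells.

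Family relatives and binding partners of the 10 genes were read for the same cells. Of 28 such genes, 4 rose and 4 fell in p45-deficient against control cells, 28.6% of the list beside 16.0% of all genes. This list was chosen with earlier results of these data known, so its shares are a description and not a test. Bcl11a, the close relative of Bcl11b that is used in progenitors and B cells, had 4.75 and 8.57 CPM in Tcf1-deficient cells, 0.441 and 0 CPM in p45-deficient cells, and 20.3 and 16.0 CPM in control cells. It fell by 6.21 ± 0.84 (SE) on the log2 scale in p45-deficient against control cells, with an adjusted p of 0.00777 in edgeR's fit. Bcl11a was nearly absent there while Bcl11b was not.

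Elk3, an ETS-family factor, had 78.2 and 70.0 CPM in Tcf1-deficient cells, 36.5 and 35.6 CPM in p45-deficient cells, and 61.6 and 72.5 CPM in control cells, and fell in p45-deficient against control cells (log2 fold change -0.89, adjusted p = 0.00855, edgeR). Ets2, another ETS factor, rose there (0.73, adjusted p = 0.0117), with 166.5 and 168.7 CPM in p45-deficient and 108.2 and 93.7 CPM in control cells. Mybl1, a relative of Myb, rose (1.42, adjusted p = 0.0128), with 12.1 and 10.9 CPM in p45-deficient and 4.21 and 4.35 CPM in control cells. The other 4 were Ikzf5 (0.58) and Hdac1 (0.45), which rose, and Themis2 (-1.84) and Cbfa2t3 (-0.88), which fell. Hdac1 (adjusted p = 0.0398, edgeR) was called in 6 of 15 alternatives and lost under the 3 other scalings in edgeR. Relatives of Ets1, Myb, Ikzf1, Bcl11b and Themis were thus called where the 10 genes themselves were not; the difference between a gene and its relative was not tested.

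Without a p45-deficient or control library, 0 of the 28 relatives were called higher and 1 to 2 lower; without a Tcf1-deficient library 8 or 9 were higher and 6 lower. Bcl11a was called in 14 of 15 alternatives, all but the one without control replicate 1. Against control, 0 of the 28 were called in Tcf1-deficient cells, and 1 higher and 2 lower without Tcf1-deficient replicate 2. In Tcf1-deficient against p45-deficient cells Elk3 (1.04) and Bcl11a (4.76) were higher, and Ets2 (-0.68), Mybl1 (-1.19), Gfi1b (-2.48) and Ikzf5 (-0.50) were lower, 21.4% of the list beside 10.4% of all genes. Leaving out a p45-deficient library left 1 call there, and leaving out a control library left 2. Without Tcf1-deficient replicate 1 there were 6 higher and 3 lower, and without replicate 2, 3 and 7. Ikzf5 was called in 2 of 15 alternatives, and Bcl11a, Mybl1 and Gfi1b were lost with the replicate block and with only the 2 groups fitted. Cbfb, the shared partner of the Runx proteins, was not called and had log2 fold changes of 0.28 in Tcf1-deficient and 0.27 in p45-deficient cells, each against control.

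**Figure D4:**
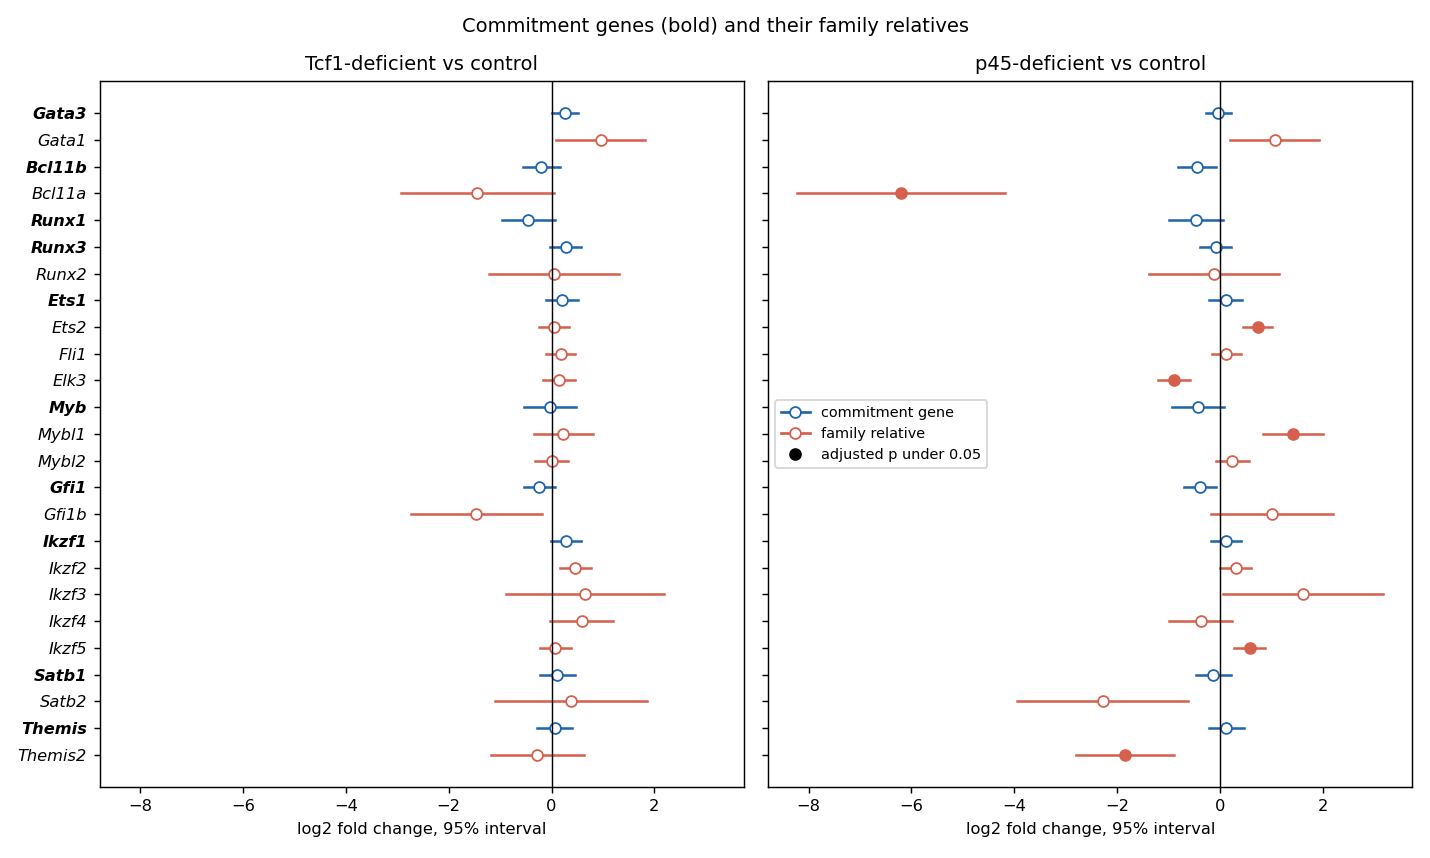
Log2 fold change against control of the 10 genes (bold) and their closest relatives, left in Tcf1-deficient and right in p45-deficient cells; filled points have an adjusted p under 0.05. Filled points appear only at right, among them Bcl11a at -6.21 and Mybl1 at 1.42.

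Inputs that act upstream of these factors were read next. Of 17 such genes, 2 rose in p45-deficient against control cells, 11.8% beside 16.0% of all genes: Dtx1, a Notch target, and Lef1, the relative of Tcf7. None fell, but that split depended on the processing: 3 fell with library totals, 1 with RLE and 2 with upper-quartile scaling, 3 with no filter, and 5 with DESeq2, which called 22.7% of all genes. Dtx1 had 271 and 328 CPM in Tcf1-deficient, 501 and 435 in p45-deficient and 147 and 140 in control cells (log2 fold change 1.71 in p45-deficient against control cells, adjusted p = 0.00186, edgeR). Lef1 had 612 and 595 CPM in Tcf1-deficient, 969 and 1006 in p45-deficient and 460 and 428 in control cells (1.15, adjusted p = 0.0021, edgeR). Hes1, also a Notch target, went the other way from Dtx1 but was not called against control. It had 126 and 195 CPM in Tcf1-deficient, 66.6 and 54.3 in p45-deficient and 92.6 and 121 in control cells. In Tcf1-deficient against p45-deficient cells, Hes1 was higher (1.41) and Tcf7, Lef1 (-0.71) and Dtx1 (-0.65) were lower. These were 23.5% of the list, beside 10.4% of all genes. That share counts Tcf7, the gene floxed in the Tcf1-deficient mice, whose lower level follows from the design. Dtx1 and Lef1 were called in p45-deficient against control cells in all 15 alternatives. Without a Tcf1-deficient library 4 of the 17 were higher and 4 lower there. Without a p45-deficient library only 1, Tcf7 itself, was called in Tcf1-deficient against p45-deficient cells.

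Of 22 genes that these factors control in T cells, 1 rose in p45-deficient against control cells, Cd27 (log2 fold change 0.61, adjusted p = 0.022, edgeR), 4.55% of the list beside 16.0% of all genes. In Tcf1-deficient against p45-deficient cells 3 were lower: Ptcra (-1.15), the pre-T-cell receptor alpha chain, Rag1 (-1.33), a recombinase, and Thy1 (-0.48). These were 13.6% of the list, beside 10.4% of all genes. Rag1 had 458 and 802 CPM in Tcf1-deficient, 1621 and 1539 in p45-deficient and 1255 and 951 in control cells. Thy1 (adjusted p = 0.0495, edgeR) was called in 3 of 15 alternatives and lost under the 3 other scalings in edgeR, and Rag1 was called in 8. Without any 1 p45-deficient or control library 0 of the 22 were called in either comparison. Leaving out either Tcf1-deficient library gave more calls in this list in both comparisons. In p45-deficient against control cells more of all genes were called as well.

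Among regulators of progenitors and other fates, 7 of 21 tested genes fell and 1 rose in p45-deficient against control cells, 38.1% beside 16.0%. The list was chosen with earlier results of these data known, so its shares are a description and not a test. Bcl11a and Gfi1b are also counted among the relatives above. Kit, the stem cell factor receptor, had 38.6 and 54.4 CPM in Tcf1-deficient, 5.55 and 6.65 in p45-deficient and 53.4 and 54.8 in control cells, a log2 fold change of -3.15 in p45-deficient against control cells (adjusted p = 0.000935, edgeR). Hoxa7 (-5.86), Bcl11a and Cebpb (-3.11) were others that fell, and Lyl1 (1.74) rose. Without a p45-deficient or control library 3 to 5 were called lower and 0 higher, and without a Tcf1-deficient library 8 or 9 lower and 2 higher; Kit and Hoxa7 were called in all 15 alternatives. Of the same list, 5 were higher in Tcf1-deficient than in p45-deficient cells, Kit (2.93), Hoxa7 (2.93), Hhex (5.77), Cebpb (2.68) and Bcl11a, and 1 was lower, Gfi1b, 28.6% beside 10.4% of all genes. In this comparison Hhex rested on 22 and 44 against 1 and 0 counts, and Hoxa7 on 27 and 35 against 3 and 5 counts. Without a p45-deficient library 2 were called there, and without a control library 3, all higher. Of 16 tested genes of innate lymphoid cells, Gzma alone was called, 6.25% of the list. It was higher in p45-deficient than in control cells by 2.63 on the log2 scale, beside 16.0% of all genes called. In Tcf1-deficient against p45-deficient cells Gzma was lower (log2 fold change -1.62), beside 10.4% of all genes called. In Tcf1-deficient against control cells none of these lists had a call in the edgeR fit described. DESeq2 called 2 higher and 1 lower of the upstream genes, 2 lower of the progenitor regulators and 1 higher of the innate lymphoid genes, and with no filter the calls were 1 higher and 1 lower, 1 lower and 1 higher in the same lists. Without Tcf1-deficient replicate 2, 11 innate lymphoid genes were higher, and 5 of the 22 T-cell genes were higher and 4 lower, beside 6.59% of all genes called. Those counts rest on Tcf1-deficient replicate 1 alone, the library with 19.9 CPM of NK and innate lymphoid markers, the lowest DN3 marker sum and 372 CPM of Cd4; the part of these in the counts was not tested.

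Patterns most like those of Gata3 and Bcl11b were sought over the 6 libraries among genes of at least 5 mean CPM, by Pearson's r of log2 CPM, as a description. For Gata3 they were Sox13 (r = 0.9893), with 105.5 and 111.9 CPM in Tcf1-deficient, 60.7 and 66.2 in p45-deficient and 77.1 and 66.0 in control cells, and En2 (r = 0.9864), with 17.9 and 35.3 CPM in Tcf1-deficient cells and 0 counts in the other 4 libraries. En2 counts were thus found only in the mice with floxed alleles and Cre. Whether they reflect expression of En2 or the engineered alleles was not tested. For Bcl11b the most alike were Herc2 (r = 0.9962) and Zfp574 (r = 0.9943), both highest in control replicate 1. With 9808 genes ranked over 6 libraries, high values of r are readily found.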

How the data were processed

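The files hold raw read counts per gene symbol, as deposited by the authors. Per the submitters' processing notes, the tools were TopHat2, featureCounts 1.5.0-p3 and DESeq2 3.4, with genome build mm9. No role or order is stated for them, and the annotation and strandedness of counting are not given. Reads of overlapping genes may not be separated. In GENCODE M21, 4930519F09Rik overlaps Themis on the opposite strand and had 18 to 54 counts per library. Gata3 is overlapped on the same strand by 9230102O04Rik, which had 0 to 4 counts per library.

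The test was edgeR 4.0.16 under R 4.3.3 (filterByExpr, TMM, robust quasi-likelihood, 1 mean per genotype over all 6 libraries, 3 residual degrees of freedom), two-sided, with Benjamini-Hochberg adjustment over 12939 genes at 0.05. A gene is called below that. SEs and 95% intervals come from the F statistic. DESeq2 1.42.0 was an alternative, and the fit was tested on simulated data. An exact permutation test of 2 against 2 libraries cannot go below p = 0.333 and was not used. The 2 libraries of a genotype differed by more than counting noise (chi-square per degree of freedom 9.93 to 76.5), and 3 counts correspond to 0.11 to 0.145 CPM.

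Named genes are the 10 members, Tcf7, relatives, up to 4 called genes per list and comparison, and the 2 genes most like Gata3 and Bcl11b; Cd4 was chosen after its values were seen. The members and the 12 other gene lists were chosen with earlier results of these data known.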

Additional observations from a re-analysis of the deposited data

How the results depend on the processing

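Of the 10 genes, 0 were called in each comparison. In p45-deficient against control cells the count was 1 with library totals (Gfi1), 1 with no filter (Bcl11b), 2 with DESeq2 and 4 with only the 2 groups fitted, and 0 to 4 with single libraries left out. In Tcf1-deficient against control cells it was 0 to 1 with libraries left out. In Tcf1-deficient against p45-deficient cells it was 1 with DESeq2 and 0 to 1 with libraries left out. The cause was not tested; the 2-group fit has 2 residual degrees of freedom.

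Over all genes, calls in p45-deficient against control cells numbered 2073, 3907 with only the 2 groups, and 258 to 3923 with libraries left out. In Tcf1-deficient against control cells they numbered 0, 33 with no filter, 145 with DESeq2 and 0 to 894 with libraries left out. In Tcf1-deficient against p45-deficient cells they numbered 1348, 2440 with DESeq2, 488 with only the 2 groups and 105 to 3437 with libraries left out. With library totals, the all-gene median of log2 fold changes in p45-deficient against control cells was -0.06 in place of 0.05, and the calls split into 721 higher and 1281 lower in place of 1096 and 977; in Tcf1-deficient against p45-deficient cells they split into 744 and 483 in place of 654 and 694. Under RLE and upper-quartile scaling the p45-deficient against control split was 893 to 1092 and 820 to 1175, and the Tcf1-deficient against p45-deficient split 698 to 543 and 689 to 529.

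With single libraries left out, log2 fold changes crossed 0 for Ets1 (-0.094 to 0.229), Themis (-0.07 to 0.233) and Runx3 (-0.2 to 0.037) in p45-deficient against control cells; for Bcl11b (-0.411 to 0.049), Themis (-0.085 to 0.219), Myb (-0.416 to 0.26) and Satb1 (-0.068 to 0.264) in Tcf1-deficient against control cells; and for Themis (-0.185 to 0.089), Runx1 (-0.402 to 0.391) and Gfi1 (-0.017 to 0.352) in Tcf1-deficient against p45-deficient cells. In p45-deficient against control cells, Bcl11b, Runx1, Myb and Gfi1 were negative in all 15 alternatives.

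Differences of replicate 1 minus 2 were hardly correlated between genotypes (correlations of -0.05 to -0.014). The labels state no pairing by replicate number, and a weak one could be missed this way. With the replicate block, 0 of the 10 genes and 1613, 0 and 920 of all genes were called in p45-deficient against control, Tcf1-deficient against control and Tcf1-deficient against p45-deficient cells, and Runx1 in the last was -0.006 in place of 0.02.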
